A study of Homo sapiens with 14 samples.

Results

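The EGF receptor family and its ligands were followed as 10 genes chosen by symbol, of the 60683 gene identifiers counted in every library. They are 3 receptor genes (EGFR, ERBB2 and ERBB3) and 7 ligand genes (AREG, EREG, HBEGF, TGFA, BTC, EPGN and NRG1). All 10 symbols were found once each. In A549 9 members had enough counts for a test (EPGN did not), and in SUM159 8 did (ERBB3 and EPGN did not).

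RNA was sequenced from 2 human cancer cell lines, A549 from lung cancer and SUM159 from triple-negative breast cancer, in 14 libraries of 7 groups with 2 libraries each. A549 cells were left untreated, or received 2 μM palbociclib for 10 days, 0.5 μM indisulam for 10 days, both drugs at these doses for 10 days, or 0.5 μM PF-06873600 for 7 days. SUM159 cells were left untreated or received 0.5 μM PF-06873600 for 7 days. Palbociclib inhibits the cell cycle kinases CDK4 and CDK6, PF-06873600 inhibits CDK2, CDK4 and CDK6, and indisulam is a sulfonamide that leads to degradation of the splicing factor RBM39. The labels name no genetic change in either line. When untreated cells were harvested is not given in the sources used here, and SUM159 cells with palbociclib or indisulam were not analysed here. The medium differed between the lines, as that of SUM159 also held insulin and hydrocortisone, so line and medium cannot be told apart. The submitters call the pairs technical duplicates, so every p-value below measures only the spread between these libraries. The tests used a spread shared by all groups of a model, though the pairs did not agree equally. The chi-square per degree of freedom between the 2 libraries of a group was 9.57 in untreated A549 and 9.05 in untreated SUM159. It was 5.04 with palbociclib, 3.08 with indisulam, 2.22 with both drugs and 1.61 with PF-06873600 in A549, and 2.29 in treated SUM159. In A549, p-values against untreated cells may thus be too small.

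Receptors of the EGF family are tyrosine kinases of the cell surface that act in pairs. EGFR binds EGF, TGFA, AREG, EREG, BTC, HBEGF and EPGN, whereas ERBB3, whose own kinase is weak, binds neuregulins such as NRG1 and signals through a partner, often ERBB2, for which no ligand is known. The ligands are made as membrane-bound precursors that proteases of the ADAM family cut free, and the receptors then feed the RAS, ERK and PI3K pathways, which drive growth of epithelial cells and of many lung and breast cancers.

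On GRCh38, with coordinates of GENCODE release 44, EGFR (ENSG00000146648) lies on chromosome 7 from 55019017 to 55211628, ERBB2 (ENSG00000141736) on chromosome 17 from 39687914 to 39730426, and ERBB3 (ENSG00000065361) on chromosome 12 from 56076799 to 56103505. HBEGF (ENSG00000113070) lies on chromosome 5 from 140332843 to 140346603 and TGFA (ENSG00000163235) on chromosome 2 from 70447284 to 70554193. A group of 4 further ligands sits together on chromosome 4, within 486 kb. Along it come EPGN (ENSG00000182585, 74308470 to 74316789), EREG (ENSG00000124882, 74365145 to 74388749), AREG (ENSG00000109321, 74445136 to 74455005) and BTC (ENSG00000174808, 74744759 to 74794523), with 0 other protein-coding genes in the gaps of 48.4, 56.4 and 290 kb between them. Exons of EGFR overlap EGFR-AS1 on the other strand, those of ERBB2 overlap PGAP3 and MIEN1 on the other strand, and those of ERBB3 and NRG1 each overlap an unnamed gene on their own strand. The strand setting of the counting is not given in the sources used here, so how reads in these overlaps were assigned is not known. Ambiguous reads were held on a summary line of their own. Reads in the overlaps may thus be missing from a member, or may come from its neighbour.

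The neighbours AREG and EREG are shown by the 250 bases before their start sites, because both rose with PF-06873600 in both lines while their A549 levels were not called changed against untreated cells by palbociclib, indisulam or both. The sequences are those of RefSeq for GRCh38.p14 on the plus strand, at chr4:74444886-74445135 for AREG and chr4:74364895-74365144 for EREG, written 5′ to 3′ and ending on the base before the start. Capitals mark matches to 6 motifs searched on both strands.
AREG: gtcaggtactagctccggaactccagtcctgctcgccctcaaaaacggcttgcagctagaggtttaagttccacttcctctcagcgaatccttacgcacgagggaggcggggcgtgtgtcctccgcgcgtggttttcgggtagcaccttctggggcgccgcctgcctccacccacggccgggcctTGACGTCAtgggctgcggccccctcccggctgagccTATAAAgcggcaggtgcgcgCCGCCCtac
EREG: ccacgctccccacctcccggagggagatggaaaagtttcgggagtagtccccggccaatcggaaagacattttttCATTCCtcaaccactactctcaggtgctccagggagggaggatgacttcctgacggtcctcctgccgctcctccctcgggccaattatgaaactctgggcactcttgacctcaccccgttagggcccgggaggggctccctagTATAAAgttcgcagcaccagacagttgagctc
Both windows hold TATAAA, the letters of a TATA box, at 29 to 24 bases before the start of AREG and 32 to 27 before that of EREG. Of 35116 promoter windows of this length, 10.7% hold it. Among the other members read, EPGN also holds it, and EGFR, ERBB2, TGFA and BTC do not. Nor does HBEGF, which rose with PF-06873600 in both lines as well. AREG also holds the cyclic AMP response element TGACGTCA, 65 to 58 bases before the start, which 1.65% of windows hold, and the SP1 letters GGGCGG in reverse at 9 to 4 bases (42.6% of windows). EREG holds the TEAD letters GGAATG in reverse at 175 to 170 bases (11.9% of windows). Neither window holds the AP-1 letters TGANTCA (6.57% of windows) or the E-box CACGTG (6.34%). Promoters were read for 8 of the 10 members. Letters in a window do not show that a factor binds there, and a link between the letters and the changes was not tested.

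Each library held between 13060374 and 21149256 counts on genes, and a level is given in CPM, the count scaled by that total. The smallest level taken as shown, 3 counts, lay between 0.142 and 0.230 CPM, a limit that covers counting error only. In bulk RNA, fewer cells that express a gene and less RNA per cell cannot be told apart. A549 libraries held all 5 epithelial markers looked at (KRT8, KRT18, KRT19, EPCAM and CDH1). Their summed mean level was 5050 CPM untreated, 7899 CPM with palbociclib, 8244 CPM with indisulam, 10299 CPM with both drugs and 11807 CPM with PF-06873600. In untreated SUM159 the sum was 727 CPM, with CDH1 at no more than 3 counts, and it was 437 CPM after treatment, while the 5 mesenchymal markers (VIM, CDH2, ZEB1, FN1 and SPARC) summed to 8155 and 20180 CPM. In A549 the mesenchymal sum was 2366 CPM untreated, 2364 CPM with palbociclib, 3150 CPM with indisulam, 3714 CPM with both drugs and 3085 CPM with PF-06873600. In A549 the 5 proliferation markers summed to 555 CPM untreated, 470 CPM with palbociclib, 451 CPM with indisulam, 123 CPM with both drugs and 354 CPM with PF-06873600. In SUM159 they summed to 2113 CPM untreated and 719 CPM treated. Apart from the mesenchymal sum with palbociclib, these sums moved with the treatments described below. The part of the sums in the changes of the members was not tested.

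In A549, ERBB3 fell with every treatment. EGFR rose with indisulam, both drugs and PF-06873600, and less certainly with palbociclib. ERBB3 stood at 267 and 265 CPM in the untreated libraries, 180.4 and 180.0 CPM with palbociclib, 127 and 122 CPM with indisulam, 45.7 and 47.1 CPM with both drugs, and 69.8 and 70.7 CPM with PF-06873600. The 5 A549 groups did not overlap, with untreated cells highest and cells given both drugs lowest. Its log2 fold change over untreated cells was -0.56 ± 0.05 (SE) with palbociclib, -1.10 ± 0.05 with indisulam, -2.52 ± 0.06 with both drugs and -1.92 ± 0.06 with PF-06873600. The adjusted p of edgeR's quasi-likelihood test was 5.83e-06, 1.07e-09, 9.94e-14 and 2.73e-12 in this order. All these comparisons share the 2 untreated libraries.

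EGFR, the receptor for most of the ligands, had 88.6 and 95.7 CPM in untreated A549 cells, 129 and 98.3 CPM with palbociclib, 170.0 and 175 CPM with indisulam, 243 and 249 CPM with both drugs, and 183 and 186 CPM with PF-06873600. Every treated library was above both untreated ones, but the lower palbociclib library was close to them. The log2 fold change was 0.91 ± 0.09 with indisulam (edgeR adjusted p = 2.4e-06), 1.42 ± 0.09 with both drugs (edgeR adjusted p = 5.82e-09) and 1.01 ± 0.09 with PF-06873600 (edgeR adjusted p = 4.18e-07). With palbociclib it was 0.30 ± 0.09 (edgeR adjusted p = 0.0464), a call that did not hold in every setting. It was lost with only the compared groups in the model (edgeR adjusted p = 0.206) and with a block for replicate number (0.0595). Without the first palbociclib library the value was 0.09, and without the first untreated library it was 0.24.

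ERBB2, the partner receptor, had smaller changes than EGFR and ERBB3 with indisulam, both drugs and PF-06873600. Its level was 166 and 143 CPM in untreated A549 cells, 119 and 118 CPM with palbociclib, 128 and 123 CPM with indisulam, 135 and 133 CPM with both drugs, and 109 and 115 CPM with PF-06873600. Both untreated libraries stood above every treated one, by a gap smaller than the difference between them for the combination and indisulam. The fall was called with palbociclib (log2 fold change -0.39 ± 0.07, edgeR adjusted p = 0.00153), indisulam (-0.30 ± 0.07, 0.00234), both drugs (-0.21 ± 0.07, 0.0166) and PF-06873600 (-0.46 ± 0.07, 4.82e-05). Without the first untreated library the value for both drugs was -0.09 with an adjusted p of 0.155, and without the first or the second library with both drugs the adjusted p was 0.0613 or 0.0867.

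**Figure D1:**
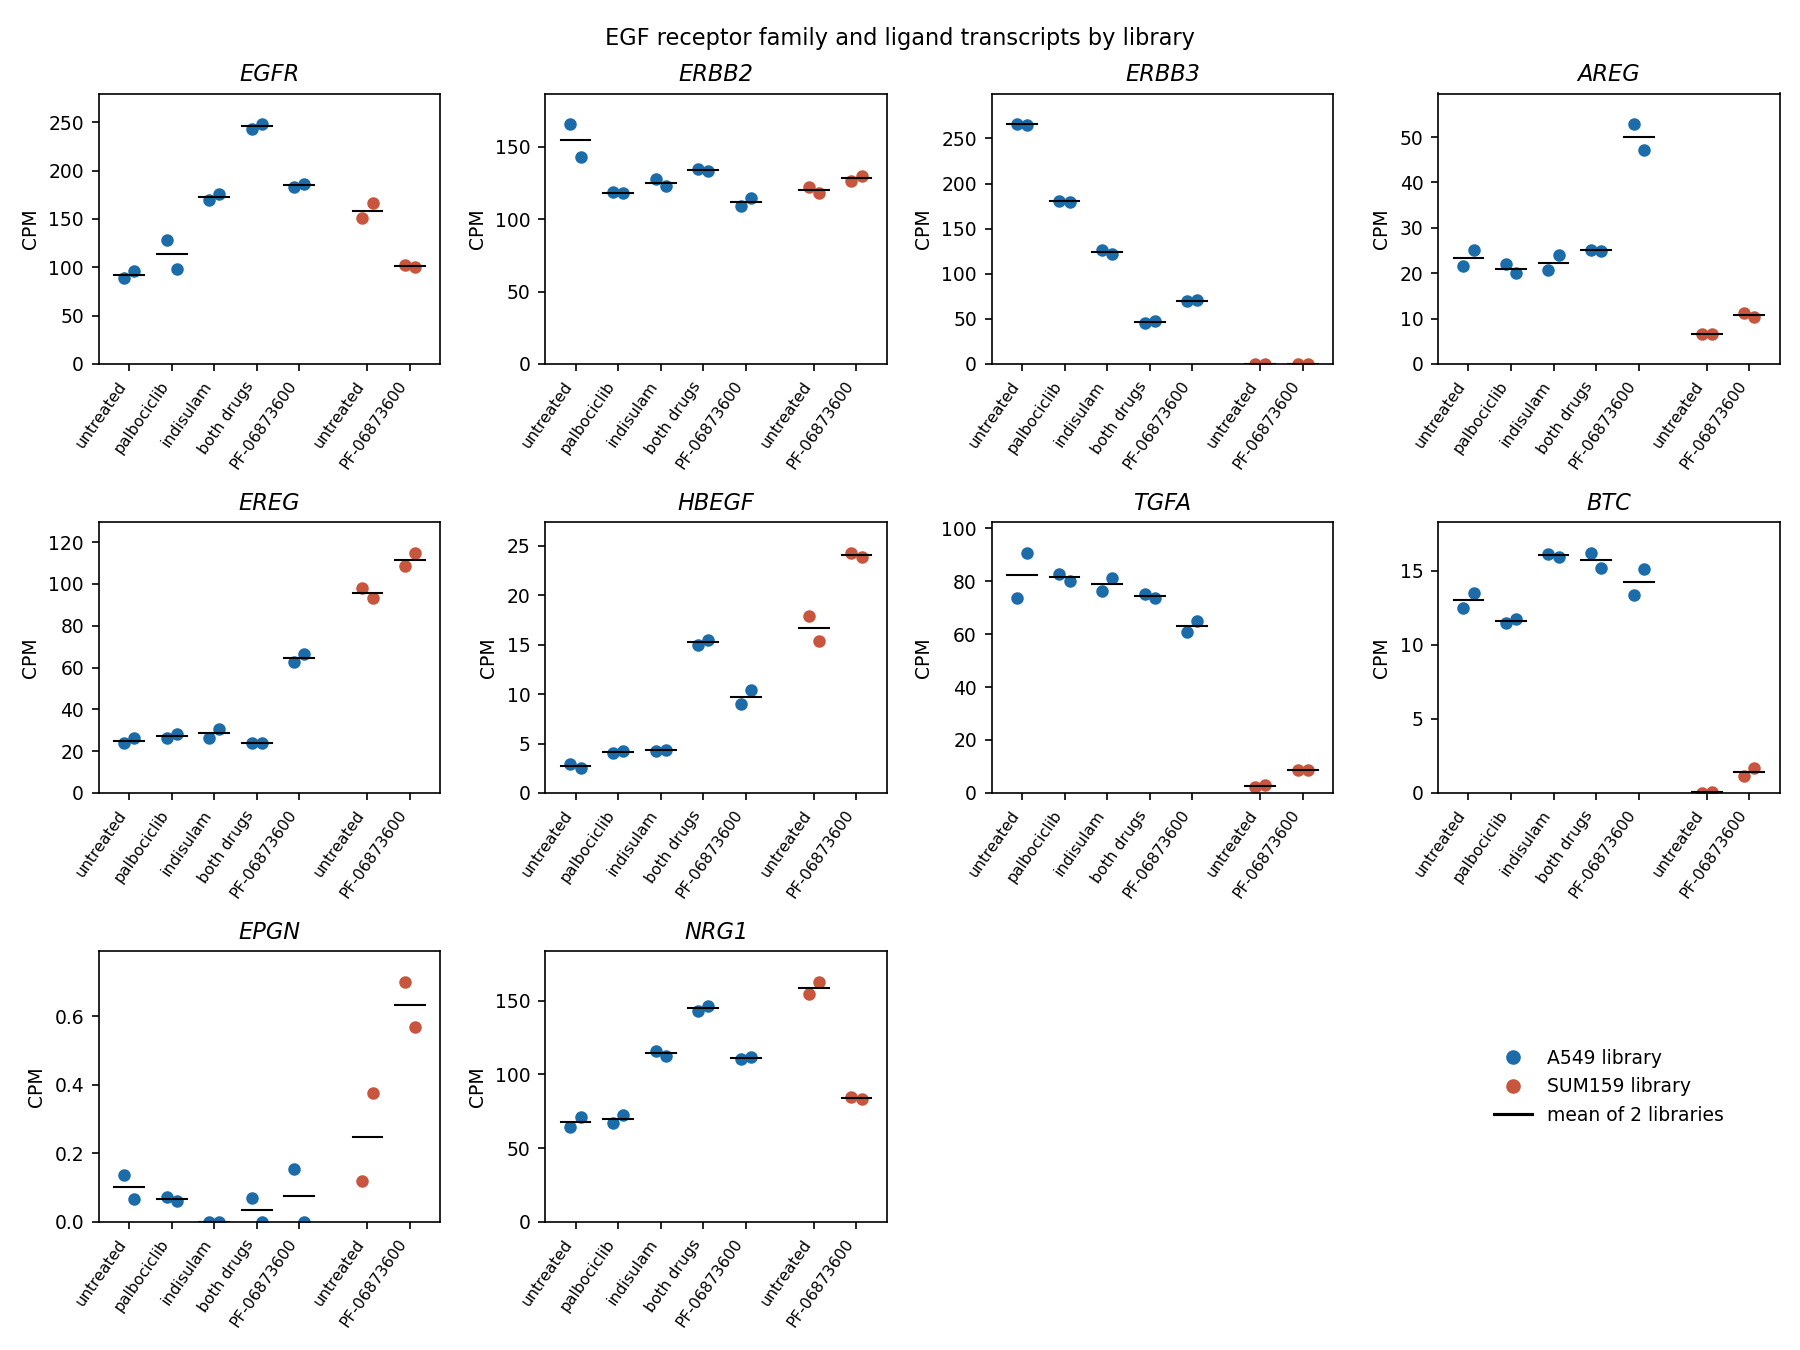
Level of each member in CPM (vertical axes from 0, scaled per gene) in each of the 14 libraries, by treatment group. Points are libraries and lines are means of 2. In A549, ERBB3 drops from about 266 CPM untreated to 46.4 CPM with both drugs while EGFR climbs from 92.1 to 246 CPM, and AREG and EREG stand apart with PF-06873600.

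Per length of transcript, these shifts changed which receptor message was most abundant. Levels were divided by the length of all annotated exons of each gene, and each receptor's share in the sum of all 3 was taken per library. In untreated A549 cells ERBB3 held a mean 52.3% of the summed receptor level per length, ERBB2 34.4% and EGFR 13.3%. With palbociclib the shares were 45.3%, 33.8% and 20.9%. With indisulam they were 31.6%, 36.1% and 32.3%, so that by this length all 3 lay close together. With both drugs ERBB3 held 12.2%, ERBB2 40.2% and EGFR 47.6%, and with PF-06873600 the shares were 21.1%, 38.1% and 40.8%. The place of ERBB3, the most abundant in untreated and palbociclib-treated cells and the least with both drugs or PF-06873600, was the same with the length of the canonical transcript. The order of EGFR and ERBB2 was not, since by canonical length ERBB2 led EGFR by 47.1% to 39.7% with both drugs and by 44.1% to 33.5% with PF-06873600.

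**Figure D2:**
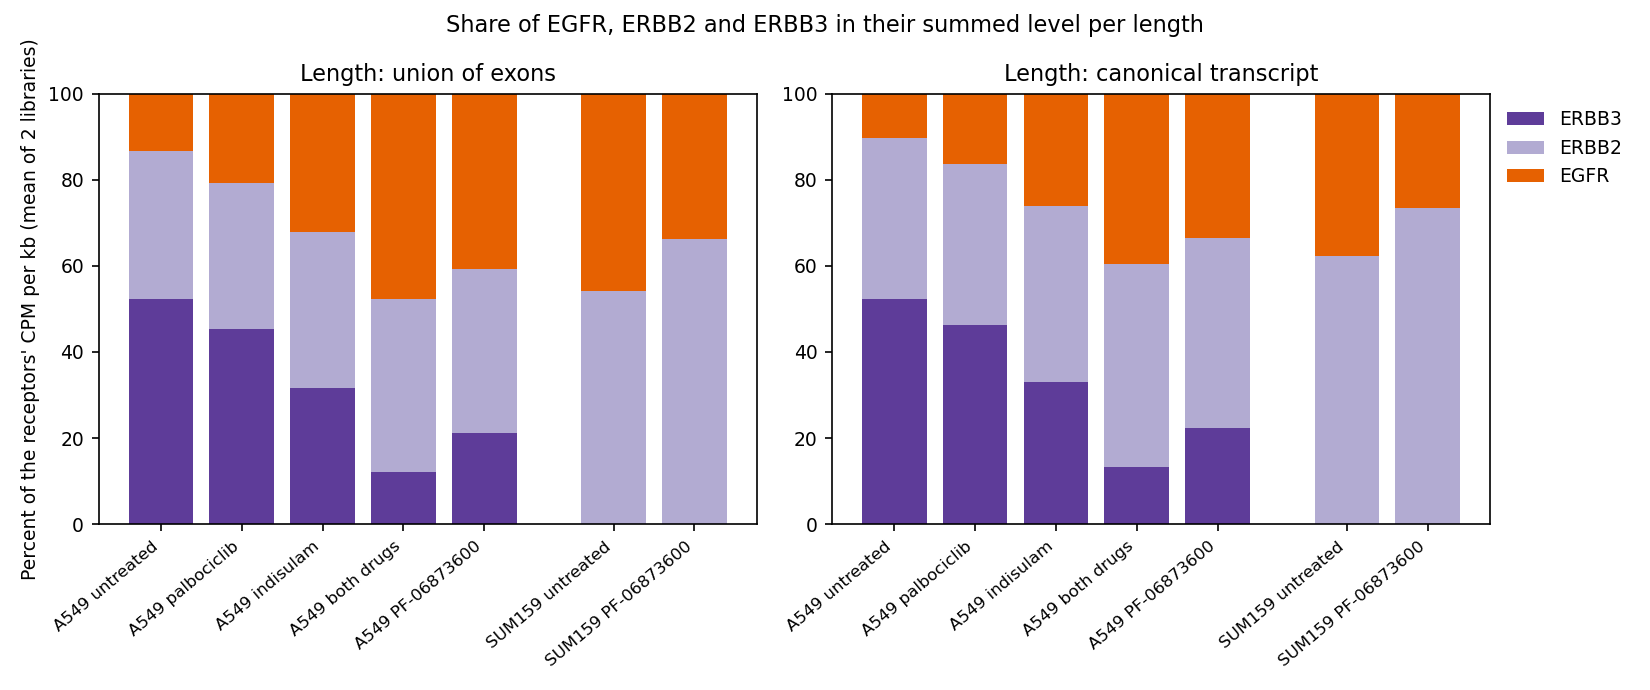
Share of EGFR, ERBB2 and ERBB3 in their summed CPM per kilobase (percent, mean of 2 libraries per bar), by group, with the length of all exons on the left and of the canonical transcript on the right. The ERBB3 share shrinks from 52.3% in untreated A549 cells to 12.2% with both drugs by exon length and is under 1% in SUM159, whereas the order of EGFR and ERBB2 differs between the panels.

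Of the ligands, HBEGF, the heparin-binding member, rose most in A549 with both drugs. It had 2.92 and 2.53 CPM untreated, 4.01 and 4.21 CPM with palbociclib, 4.28 and 4.36 CPM with indisulam, 14.96 and 15.5 CPM with both drugs, and 9.03 and 10.4 CPM with PF-06873600. No treated library overlapped the untreated ones, and the libraries with both drugs were the highest in A549. The log2 fold change was 2.48 ± 0.15 with both drugs (edgeR adjusted p = 2.36e-09) and 1.84 ± 0.16 with PF-06873600 (edgeR adjusted p = 2.09e-07). With the single drugs it was 0.59 ± 0.18 for palbociclib (edgeR adjusted p = 0.0402) and 0.66 ± 0.18 for indisulam (edgeR adjusted p = 0.00819). The palbociclib call was lost with no filter on low counts (edgeR adjusted p = 0.0741) and with only the compared groups in the model (0.162). Both single-drug values rest on 38 to 69 counts per library, and DESeq2 gave adjusted p-values of 0.173 and 0.0912 for them. With so few counts in untreated cells, the SE given for HBEGF in A549 can be smaller than the counting error. Without the second untreated library the edgeR values were 0.158 and 0.0578.

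NRG1 (ENSG00000157168), a ligand of ERBB3 encoded on chromosome 8 from 31639222 to 32855666, rose in A549 with indisulam, both drugs and PF-06873600, where its receptor fell. Its level was 64.2 and 71.5 CPM untreated, 67.1 and 72.2 CPM with palbociclib, 116 and 113 CPM with indisulam, 143 and 147 CPM with both drugs, and 110.3 and 112 CPM with PF-06873600. Palbociclib and untreated libraries overlapped, and the other 3 groups stood above them. The log2 fold change was 0.04 ± 0.07 with palbociclib (edgeR adjusted p = 0.762), 0.75 ± 0.07 with indisulam (5.04e-07), 1.09 ± 0.07 with both drugs (2.3e-09) and 0.71 ± 0.07 with PF-06873600 (4.71e-07).

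AREG and EREG, low-affinity EGFR ligands encoded side by side, rose in A549 with PF-06873600. AREG had 21.5 and 25.2 CPM untreated, 22.0 and 20.1 CPM with palbociclib, 20.6 and 23.9 CPM with indisulam, 25.2 and 25.0 CPM with both drugs, and 53.0 and 47.2 CPM with PF-06873600. EREG had 23.8 and 26.3 CPM untreated, 26.2 and 28.2 CPM with palbociclib, 26.5 and 30.5 CPM with indisulam, 24.0 and 23.9 CPM with both drugs, and 62.7 and 66.7 CPM with PF-06873600. For both genes the PF-06873600 libraries stood far above all 8 other A549 libraries, which lay close together. Against untreated cells the log2 fold change with PF-06873600 was 1.10 ± 0.10 for AREG (edgeR adjusted p = 3.87e-07) and 1.37 ± 0.09 for EREG (edgeR adjusted p = 8.25e-09). With both drugs the values were 0.10 ± 0.11 for AREG (edgeR adjusted p = 0.415) and -0.07 ± 0.10 for EREG (edgeR adjusted p = 0.55). The combination lasted 10 days and PF-06873600 7 days, so these treatments are set side by side without a test between them.

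TGFA, a close relative of EGF, fell with PF-06873600. It had 73.8 and 90.8 CPM in untreated A549 cells, 82.8 and 80.0 CPM with palbociclib, 76.4 and 81.3 CPM with indisulam, 75.2 and 73.5 CPM with both drugs, and 60.9 and 64.9 CPM with PF-06873600. In A549 only the PF-06873600 libraries lay below those of every other group, and the untreated libraries differed from each other by more than the other A549 pairs did. The log2 fold change with PF-06873600 was -0.39 ± 0.09 (edgeR adjusted p = 0.00149). Changes with palbociclib, indisulam and both drugs were not called, with values of -0.02, -0.06 and -0.15. Without the first untreated library the change was -0.20 with indisulam (edgeR adjusted p = 0.0183) and -0.29 with both drugs (edgeR adjusted p = 0.00102).

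BTC, which can bind both EGFR and ERBB4, changed little in A549. Its level was 12.5 and 13.5 CPM untreated, 11.5 and 11.8 CPM with palbociclib, 16.2 and 15.9 CPM with indisulam, 16.2 and 15.2 CPM with both drugs, and 13.4 and 15.1 CPM with PF-06873600. The log2 fold change was 0.30 ± 0.11 with indisulam (edgeR adjusted p = 0.0321) and 0.27 ± 0.11 with both drugs (edgeR adjusted p = 0.0382). With TMM scaling these adjusted p-values were 0.105 and 0.143, and without the first untreated library 0.118 and 0.145. EPGN, the last of the chromosome 4 ligands, had at most 2 counts in any A549 library and was not tested there.

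Counted over the members, palbociclib gave 2 higher and 2 lower of the 9 tested in A549, where 15.7% of all 15780 genes tested were called, 8.3% higher and 7.4% lower. Indisulam gave 4 higher and 2 lower, beside 45.5% of all genes called (28% higher, 17.5% lower). With both drugs the count was also 4 higher and 2 lower, beside 65.2% (35.1% higher, 30% lower). PF-06873600 gave 5 higher and 3 lower, beside 56.3% (28.5% higher, 27.8% lower). The median log2 fold change of the 9 members was -0.02, 0.19, 0.10 and 0.71 in this order, beside -0.01, 0.08, 0.05 and -0.01 over all genes tested. The palbociclib count fell to 2 when only the compared groups were in the model.

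**Figure D3:**
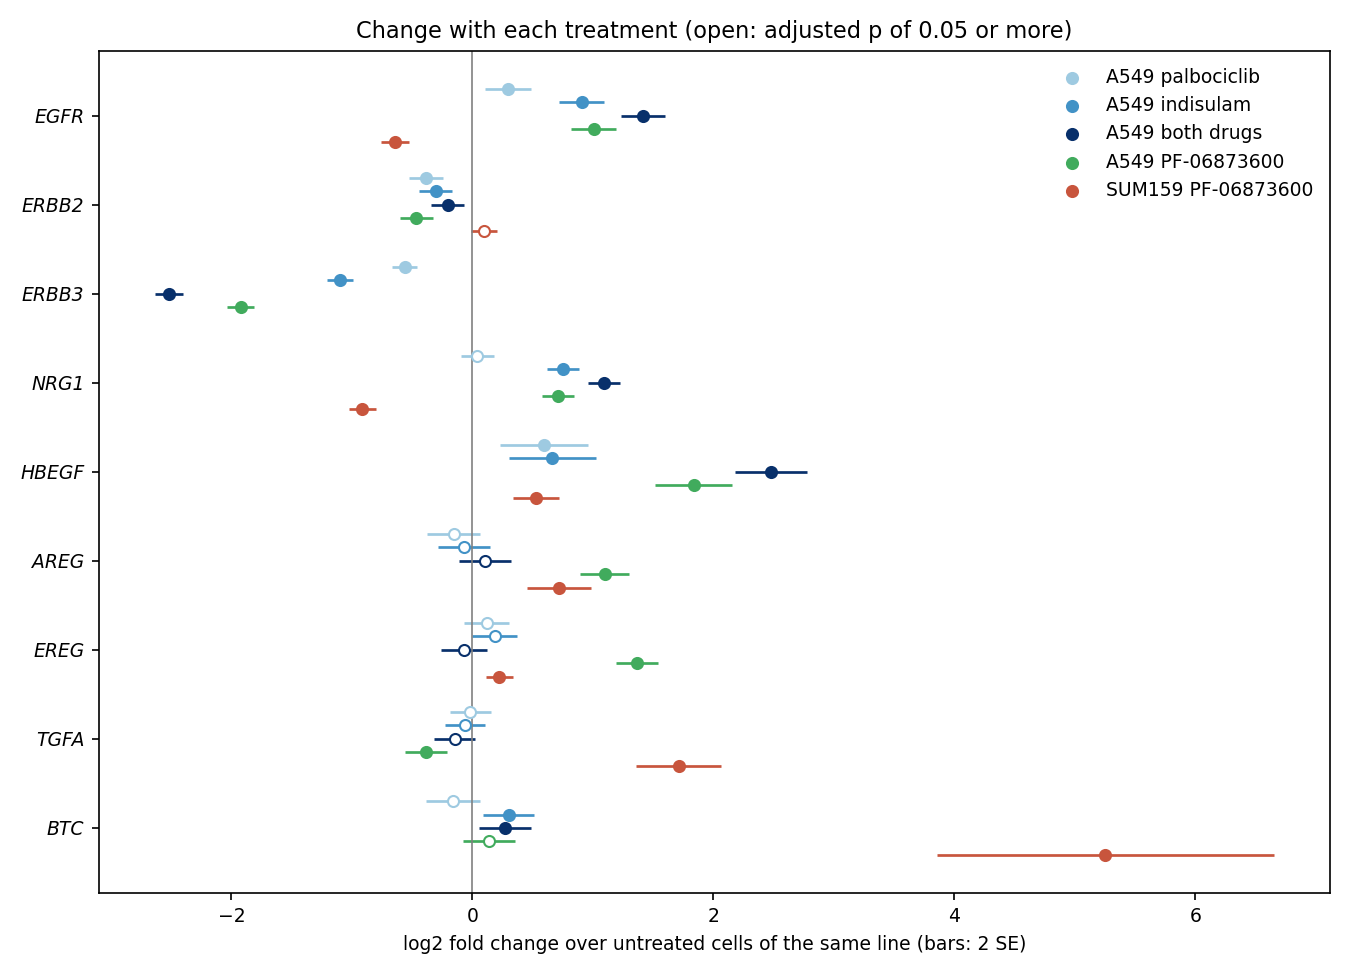
Log2 fold change of 9 members over untreated cells of the same line (horizontal axis, points, with bars of 2 SE) for 4 treatments of A549 and for PF-06873600 in SUM159. Filled points have an edgeR adjusted p under 0.05, and ERBB3 in SUM159 was not tested. ERBB3 lies left of 0 for all A549 treatments, EGFR and NRG1 lie right of 0 in treated A549 cells and left of 0 in SUM159, and BTC in SUM159 has the widest bar.

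Whether the second drug added to the first was asked against each single drug. Against palbociclib alone, the combination had higher EGFR (log2 fold change 1.12 ± 0.09), HBEGF (1.89 ± 0.14), NRG1 (1.05 ± 0.07) and BTC (0.43 ± 0.11) and lower ERBB3 (-1.96 ± 0.06). With DESeq2 the adjusted p of BTC was 0.0556. ERBB2 was 0.18 ± 0.07 higher with an edgeR adjusted p of 0.0357, which was 0.29 with TMM scaling. That makes 5 higher and 1 lower of 9, where 60.4% of all genes were called (33.5% higher, 26.9% lower). Against indisulam alone, EGFR (0.51 ± 0.09), HBEGF (1.82 ± 0.14) and NRG1 (0.34 ± 0.06) were higher and ERBB3 (-1.42 ± 0.06) was lower. EREG was lower by -0.25 ± 0.09, with an edgeR adjusted p of 0.0392 that was 0.2 with DESeq2. The count was 3 higher and 2 lower of 9 beside 46% of all genes called (22% higher, 23.9% lower).

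The interaction term tested whether the log2 change with both drugs differed from the single-drug changes added together. For ERBB3 the single changes summed to -1.66, and the combination gave -2.52, a difference of -0.86 ± 0.08 (edgeR adjusted p = 1.84e-06). For HBEGF they summed to 1.26, and the combination gave 2.48, a difference of 1.22 ± 0.23 (edgeR adjusted p = 0.00144). ERBB2 went the other way, with single changes that summed to -0.69 and a combined change of -0.21 (difference 0.49 ± 0.10, edgeR adjusted p = 0.00202). EGFR had a difference of 0.21 ± 0.13, which was not called (edgeR adjusted p = 0.267). EREG had -0.37 ± 0.13, just short of the threshold (edgeR adjusted p = 0.0536). NRG1 had 0.30 ± 0.09 (edgeR adjusted p = 0.0293), a call lost when any of 6 of the 8 libraries was left out. Interaction was called for 3 members in the positive and 1 in the negative direction, with 25.2% of all genes called (10.7% positive, 14.5% negative).

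In SUM159 most members moved differently with PF-06873600. EGFR fell from 151 and 166 CPM untreated to 102 and 101 CPM, a log2 fold change of -0.64 ± 0.06 (edgeR adjusted p = 1.14e-07). NRG1 fell from 154 and 163 CPM to 84.8 and 83.6 CPM, a log2 fold change of -0.91 ± 0.05 (edgeR adjusted p = 1.04e-09). Neither gene's groups overlapped, and both had risen in A549 with the same agent, dose and time. ERBB2 had 122 and 118 CPM untreated and 127 and 130.2 CPM treated, and its change of 0.09 ± 0.05 was not called (edgeR adjusted p = 0.119). ERBB3 was nearly absent from SUM159, with 6 and 5 counts untreated and 5 and 1 counts treated, and was not tested. The receptor messages of this line were therefore those of ERBB2 and EGFR, with 53.9% and 46% of the summed level per exon length untreated and 66.1% and 33.8% after treatment.

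The EGFR ligands tested in SUM159 rose. TGFA went from 2.35 and 3.01 CPM to 8.71 and 8.84 CPM, a log2 fold change of 1.71 ± 0.18 (edgeR adjusted p = 4.78e-07). BTC had 0 and 1 counts untreated and 20 and 35 counts treated, a ratio of 46.8 with a 95% counting interval from 8.06 to 1882, and still only 1.17 and 1.65 CPM. Treated libraries lay above untreated ones for both genes, in contrast to TGFA in A549, which fell. AREG rose from 6.57 and 6.58 CPM to 11.3 and 10.4 CPM (log2 fold change 0.72 ± 0.13, edgeR adjusted p = 0.000191). HBEGF rose from 17.9 and 15.4 CPM to 24.3 and 23.8 CPM (0.53 ± 0.10, edgeR adjusted p = 0.00017). EREG had 98.1 and 93.1 CPM untreated and 108 and 115 CPM treated (0.22 ± 0.06, edgeR adjusted p = 0.00234), and without the second treated library the adjusted p was 0.0663. EPGN had 2 and 6 counts untreated and 12 in each treated library, and without a filter on low counts its log2 fold change was 1.33 (edgeR adjusted p = 0.0432). Of the 8 members tested, 5 were higher and 2 lower, where 73.7% of 15055 genes were called (38.1% higher, 35.6% lower), and their median log2 fold change was 0.38 beside 0.02 over all genes tested.

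Whether PF-06873600 changed the members unequally in both lines was tested in a model of all 14 libraries, as the SUM159 change minus the A549 change. It was called for 7 of 9 members, where 53% of all 17279 genes were called. Of the members 3 were positive and 4 negative, beside 25.8% and 27.2% of all genes. EGFR differed by -1.65 ± 0.12 (edgeR adjusted p = 1.39e-09) and NRG1 by -1.62 ± 0.09 (edgeR adjusted p = 1.74e-11), and both had opposite directions in the lines. TGFA differed by 2.10 ± 0.19 (edgeR adjusted p = 2.04e-08), also with opposite directions. EREG (-1.14 ± 0.11) and HBEGF (-1.31 ± 0.19) rose in both lines and by more in A549. The AREG difference of -0.38 ± 0.17 was not called (edgeR adjusted p = 0.0624). For ERBB3 the value of 0.85 ± 0.66 rests on 1 to 6 counts per SUM159 library.

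Before treatment the lines already differed in all 9 members tested, where 78.7% of all genes were called (41.9% higher and 36.8% lower in SUM159). EGFR (log2 difference 0.78 ± 0.09), NRG1 (1.23 ± 0.06), EREG (1.93 ± 0.08) and HBEGF (2.61 ± 0.14) were higher in SUM159. AREG (-1.83 ± 0.12), ERBB2 (-0.36 ± 0.06) and TGFA (-4.94 ± 0.13, on 39 and 48 counts in untreated SUM159) were lower there. ERBB3 was lower too (log2 difference -9.59), with 6 and 5 counts in untreated SUM159 against 3922 and 3980 in untreated A549. Its SE is not given, since the one taken from F is too small for so few counts. BTC had 184 and 203 counts in untreated A549 against 0 and 1 in untreated SUM159, a ratio of 424 with a 95% counting interval from 75.6 to 16788. By level per exon length, TGFA was the most abundant ligand message of untreated A549 (37.7% of the ligand sum, followed by AREG with 32%), and AREG was that of PF-06873600-treated A549 (44.5%). EREG was that of SUM159, with 48.7% untreated and 48.1% treated. By canonical length the same ligands led, with 35.6% for TGFA and 33.7% for AREG in untreated A549, 45.7% for AREG with PF-06873600, and 43.98% and 45.5% for EREG in SUM159.

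Ordered by mean CPM over the 7 groups, EGFR was highest in A549 with both drugs, at 246 CPM, followed by A549 with PF-06873600 at 185 CPM, A549 with indisulam at 173 CPM and untreated SUM159 at 158 CPM. The lowest were treated SUM159 (101 CPM) and untreated A549 (92.1 CPM), and A549 with palbociclib (113 CPM) overlapped treated SUM159. For NRG1 the order ran from untreated SUM159 at 159 CPM through A549 with both drugs at 145 CPM to untreated A549 at 67.8 CPM, where palbociclib and untreated libraries overlapped. HBEGF was highest in treated SUM159 at 24.1 CPM, and untreated SUM159 (16.7 CPM) overlapped A549 with both drugs (15.2 CPM). TGFA in untreated, palbociclib-treated and indisulam-treated A549 overlapped at 78.9 to 82.3 CPM.

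Across the 10 A549 libraries, the genes whose log2 CPM ran most like a member's were PLXNB3, RAP1GDS1 and ZMAT3 for EGFR (Pearson's r of 0.993, 0.992 and 0.991), XBP1, C9orf152 and AKR1C2 for ERBB3 (0.997, 0.997 and 0.996) and LPCAT1, SLC16A3 and SLC2A1 for HBEGF (0.999, 0.998 and 0.996). For NRG1 they were GRIP2, AMIGO2 and NPR3 (0.996, 0.995 and 0.994), for AREG SLC35E3, CEACAM6 and CTNNAL1 (0.979, 0.974 and 0.966), and for EREG SHQ1, TUBG1 and NME1 (0.990, 0.985 and 0.981). These are descriptions over 10376 genes. The libraries fall into 5 treatment groups of 2, which alone gives many genes a similar course.

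Release of the ligands was not measured, but the messages of 10 genes of shedding proteases and their partners were followed. Of these, 5 were higher and 0 lower with palbociclib in A549 (15.7% of all genes called), 6 and 0 with indisulam (45.5%), 8 and 1 with both drugs (65.2%), and 7 and 2 with PF-06873600 (56.3%), and in SUM159 all 10 were higher (73.7% of all genes called, 38.1% higher). The median log2 fold change was 0.28 with palbociclib, 0.42 with indisulam, 1.00 with both drugs and 1.02 with PF-06873600 in A549, and 1.09 in SUM159. Over all genes tested it was -0.01, 0.08, 0.05, -0.01 and 0.02. ADAM19, a membrane metalloprotease, had 1.97 and 1.33 CPM untreated in A549, 6.23 and 6.59 CPM with palbociclib, 26.6 and 25.97 CPM with indisulam, 62.8 and 62.1 CPM with both drugs and 21.7 and 22.8 CPM with PF-06873600. Its groups did not overlap between untreated and treated cells, and its log2 fold change was 5.24 ± 0.13 with both drugs (edgeR adjusted p = 1.78e-13). ADAM12, which can cut HBEGF, rose by 2.46 ± 0.14 with both drugs and 2.26 ± 0.14 with PF-06873600 in A549, and by 0.50 ± 0.05 in SUM159. RHBDF2, which carries ADAM17 to the cell surface, rose by 1.72 ± 0.10, 1.87 ± 0.10 and 1.38 ± 0.07 in the same order.

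ADAM17, the main sheddase of AREG, EREG, HBEGF and TGFA, was named after its values were seen. In A549 it had 77.1 and 84.8 CPM untreated, 63.5 and 60.4 CPM with both drugs and 60.5 and 63.3 CPM with PF-06873600. In SUM159 it had 47.3 and 43.5 CPM untreated and 75.6 and 72.6 CPM treated. The message thus fell in A549 by 0.39 on the log2 scale with both drugs (edgeR adjusted p = 0.000195) and also with PF-06873600 (0.000269), and rose by 0.70 ± 0.06 in SUM159 (edgeR adjusted p = 1.4e-07). The difference between the lines was 1.09 ± 0.10 (edgeR adjusted p = 1.61e-08).

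**Figure D4:**
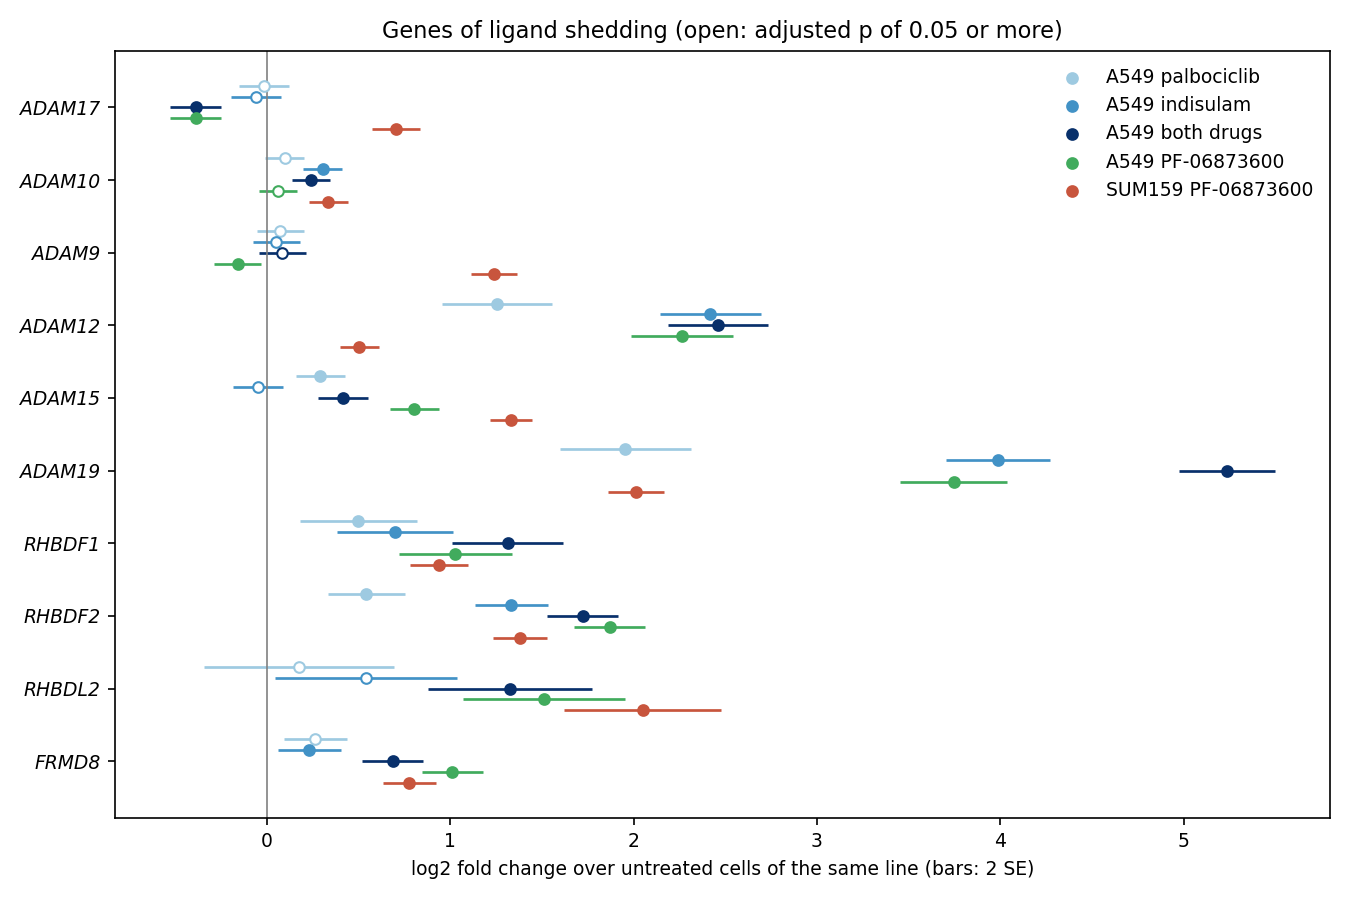
Log2 fold change over untreated cells of the same line (horizontal axis, points, with bars of 2 SE) of 10 genes that take part in ligand shedding, for 4 treatments of A549 and for PF-06873600 in SUM159. Filled points have an edgeR adjusted p under 0.05. ADAM19 reaches 5.24 with both drugs in A549, while ADAM17 lies at -0.39 there and at 0.70 in SUM159.

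The list of other receptors and ligands held 5 genes, of which the difference between the lines in the PF-06873600 change was called for EGF alone of 4 tested. EGF, the founding ligand, had 11.96 and 15.9 CPM in untreated A549, 10.00 and 9.46 CPM with both drugs and 7.89 and 9.58 CPM with PF-06873600. In SUM159 it had 1.21 and 1.75 CPM untreated and 5.90 and 5.91 CPM treated, a log2 fold change of 2.00 ± 0.22 (edgeR adjusted p = 1.21e-06), against -0.66 ± 0.16 in A549 (edgeR adjusted p = 0.00268). ERBB4 was not tested in either line. NRG2 rose by 2.43 with both drugs in A549 on at most 15 counts per library, and NRG4 fell by 0.69 on the log2 scale with both drugs in A549. With PF-06873600 NRG4 rose by 0.94 in SUM159, its A549 value of 0.44 was not called, and the difference of 0.50 between the lines was not called either (edgeR adjusted p = 0.297). NRG3 was not called in A549 and was not tested in SUM159.

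Inside the cell, the signalling list of adaptors and kinases had 11 of 23 tested genes higher and 4 lower with both drugs in A549, 7 higher and 7 lower with PF-06873600, and 8 higher and 9 lower with PF-06873600 in SUM159. All genes were called at 65.2%, 56.3% and 73.7% in these comparisons, so the list counts lay near the background. SHC1, an adaptor that docks on the activated receptors, rose in all of them, by 1.01 ± 0.05, 1.12 ± 0.05 and 1.20 ± 0.06. PLCG1, a phospholipase recruited by EGFR, rose by 1.60 ± 0.09 with both drugs and by 0.85 ± 0.09 and 0.16 ± 0.06 with PF-06873600 in A549 and SUM159. The list medians were 0.16, -0.10 and -0.09, beside 0.05, -0.01 and 0.02 over all genes tested.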

How the data were processed

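The authors deposited whole-number read counts per Ensembl gene for each library, from stranded mRNA libraries, with 60683 gene identifiers and 9 summary lines. The submitters' processing notes name GRCh38, HISAT2 2.2.1 and HTSeq. The annotation release and strand setting are not given in the sources used here. Summary lines were left out of totals (ambiguous reads 3.38 to 4.00%, reads on no gene 4.16 to 6.81%). Genes were kept with filterByExpr and tested with the quasi-likelihood F test of edgeR 4.0.16 in R 4.3.3, scaled by total counts, after the study's normalization, with Benjamini-Hochberg adjustment over all genes tested and a threshold of 0.05. The models held 10 A549, 4 SUM159 or all 14 libraries. SE is the size of the log2 fold change over the root of F. It can be smaller than the counting error where a group holds few counts, as for HBEGF in A549 and for TGFA between the untreated lines. Bars of 2 SE are then too short. Alternatives were TMM, DESeq2 1.42.0, no filter, a minimum mean count of 50, a model of the compared groups alone, a replicate block and each library left out. The scripts were tested on simulated counts. All members were named, with up to 3 genes per pathway list and comparison, past the threshold, at 10 CPM or more and without overlap. The members and lists were chosen with earlier results of these data known.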

Additional observations from a re-analysis of the deposited data

Results flagged for a closer look

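The response to PF-06873600 differed between the lines for 7 members by an interaction test (edgeR adjusted p under 0.05), given as the SUM159 log2 fold change minus that of A549. The difference was -1.65 for EGFR, -1.62 for NRG1, 2.10 for TGFA, -1.14 for EREG, -1.31 for HBEGF, 0.56 for ERBB2 and 5.08 for BTC. For EGFR, NRG1 and TGFA the changes had opposite signs and each was called in its own line. The ERBB2 change was called in A549 and not in SUM159, and the BTC change in SUM159 and not in A549, where the untreated SUM159 libraries held 0 and 1 counts of BTC.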

How the results depend on the processing

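Each member's log2 fold change was fitted again in each comparison under each setting, so the same value is counted several times here. Of the refits that kept all libraries, 496 kept their direction and their side of the threshold. The call was lost in 21 and gained in 7, and 1 changed sign. Of the refits with a library left out, 13 changed sign. No value that changed sign had been called, and the causes were not tested. The members called with palbociclib against untreated cells were 4, and 2 with only the compared groups or with the replicate block, where EGFR had an edgeR adjusted p of 0.0595 and HBEGF of 0.0505. Same-numbered libraries did not deviate together (correlations of -0.219 to 0.168 in A549 and 0.0421 in SUM159), so the numbers were not taken as a pairing. EREG came past the threshold in the interaction with the block (edgeR adjusted p = 0.0384), with TMM (0.048) and with a minimum mean count of 50 (0.0466). With the palbociclib numbers crossed, a block chosen after the data were seen, 4 members and 3023 genes were called. All genes called with palbociclib numbered 2478, 1589 with DESeq2 and 962 with only the compared groups, and 1494 or 1310 without the first or the second palbociclib library.

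With each library left out, members called ranged from 2 to 3 for palbociclib, 5 to 6 for indisulam, 4 to 6 for both drugs, 5 to 5 against palbociclib, 4 to 5 against indisulam, 3 to 5 for the interaction, 8 to 8 for PF-06873600, 6 to 8 in SUM159, 7 to 8 for the line difference and 9 to 9 between untreated lines. Log2 fold changes that changed sign with a library left out ranged from -0.16 to 0.14 for TGFA and -0.035 to 0.12 for NRG1 with palbociclib, from -0.18 to 0.053 for AREG and -0.20 to 0.10 for TGFA with indisulam, and from -0.0074 to 0.22 for AREG, -0.14 to 0.0079 for EREG and -0.29 to 0.0097 for TGFA with both drugs. The range was -0.079 to 0.017 for BTC against indisulam (0.0028 with DESeq2), -0.23 to 0.072 for TGFA in the interaction and -0.72 to 1.72 for ERBB3 in the line difference. EREG in SUM159 lost its call without the second treated library (adjusted p = 0.0663). With TMM, TGFA with both drugs was called (-0.23, 0.0284). TMM moved the share of calls that were higher with indisulam from 61.6% to 50.4%, and the median log2 difference of all genes between untreated lines from 0.08 to -0.01. ERBB3 in SUM159 and EPGN fell below the filter on low counts; without it, their adjusted p in SUM159 was 0.324 and 0.0432.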

Other observations

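Genes that read out ERK activity or restrain the receptors were followed as lists. Of 10 ERK output genes, 3 were higher and 7 lower with both drugs in A549, 3 higher and 5 lower with PF-06873600 in A549, and 7 higher and 3 lower in SUM159, with median log2 fold changes of -0.33, -0.22 and 0.40, beside 0.05, -0.01 and 0.02 over all genes tested. Of all genes, 65.2% were called in the first of these comparisons (30% lower), 56.3% in the next (27.8% lower) and 73.7% in SUM159 (38.1% higher). ETV4, a transcription factor, had 188 and 173 CPM in untreated A549, 36.5 and 35.4 CPM with both drugs and 29.0 and 29.9 CPM with PF-06873600. It fell in SUM159 as well, from 60.6 and 57.3 CPM to 21.2 and 22.3 CPM. CCND1, which encodes cyclin D1 and partners CDK4 and CDK6, rose by 1.84 ± 0.05 with both drugs and 1.55 ± 0.05 with PF-06873600 in A549, and by 0.69 ± 0.06 in SUM159. DUSP6, an ERK phosphatase, rose by 1.62 ± 0.09 in SUM159 (edgeR adjusted p = 6.86e-10), and its change in A549 with PF-06873600 was -0.17 ± 0.07 (edgeR adjusted p = 0.0567), a difference between the lines of 1.79 ± 0.12.

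Of 14 negative regulators and turnover genes tested, 6 were higher and 5 lower with both drugs in A549, 4 and 6 with PF-06873600, and 6 and 2 in SUM159, against the same shares of all genes called. Their median log2 fold changes were 0.14, 0.06 and 0.12. LRIG1, which promotes the breakdown of EGF family receptors, had 24.1 CPM in each untreated A549 library and 11.9 and 13.7 CPM with PF-06873600. In SUM159 it went from 14.3 and 11.8 CPM to 98.2 and 95.6 CPM, and the lines differed by 3.79 ± 0.15 (edgeR adjusted p = 1.93e-13).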
